A study of Homo sapiens with 9 samples.

Results

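The RNA cargo of microvesicles (MVs) was compared with that of exosomes (EXOs) released by the same line of stem cells, across the whole transcriptome and with attention to gene classes other than translation, energy metabolism, splicing and pluripotency. All probe sets that were not array controls entered, 54613 in number, on the 3 arrays of MVs and the 3 arrays of EXOs, which are 6 of the 9 arrays of the series. Of these probe sets 41091 were paired with a single gene, and they measured 19777 genes. The other 3 arrays hold non-fractionated vesicles (hESEVs) and were read only as a separate measurement of genes that differed between the fractions.

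Every array holds RNA of vesicles from H9, a long-established human embryonic stem cell (hESC) line, and none of the groups had a drug treatment or genetic change. The cells grew on Matrigel in mTeSR1 medium without serum or feeder cells at 37 C, and medium was taken after 24 h at 80% confluence. It was cleared at 300g for 10 min, which the descriptions of the MVs samples give as 200g, and then at 2800g for 40 min. MVs are the pellet of a spin at 16500g for 1 h, EXOs are the pellet of that supernatant at 120000g for 2 h, and hESEVs, by the labels, came down at 120000g for 2 h straight after the first clearing spin. The study's methods give other spins for hESEVs, with a faster first one that also removes apoptotic bodies, and the labels and methods were not reconciled. RNA was hybridized to Affymetrix HG-U133 Plus 2.0 arrays, which read short stretches of each transcript, mostly near its 3′ end. The study's methods describe the replicates of a group as separate biological samples, while the labels only number them, and the p-values measure the spread between these arrays. Both fractions are defined by sedimentation alone, and each pellet may hold vesicles of either kind.

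MVs form when the plasma membrane buds outward and pinches off, a process that involves the actin cortex beneath the membrane. EXOs begin as small vesicles inside endosomes, where ESCRT proteins sort cargo, and they leave the cell when such an endosome fuses with its surface. Both carry RNA of the releasing cell, and an array compares the make-up of that RNA. Fewer vesicles holding an mRNA and fewer copies of it per vesicle cannot be told apart.

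Signals are MAS5 intensities on a linear scale with every array scaled to a target of 500, so a value is a share of its array's signal and not an amount per vesicle. The median signal of an array was 358 to 365 in MVs and 422 to 429.7 in EXOs, while 908 to 945 probe sets passed 5000 in MVs and 293 to 319 did so in EXOs. The 3′ control probe set of GAPDH exceeded the 5′ one by 1.53 on the log2 scale on all 3 MVs arrays and by 0.47 to 0.77 on the EXOs arrays, and that of ACTB by 4.49 to 4.65 and 2.50 to 2.77. This gap between the ends of a transcript, often read as a sign of RNA length and quality, thus moved with vesicle type. By the study's electrophoresis, RNA of MVs was much longer than that of EXOs, which held mainly small RNA. The smaller gap in EXOs is therefore not read here as longer or better RNA. The part of RNA length and of this gap in the results below was not tested. Genes with no known use in stem cells (149 olfactory and taste receptors, hair keratin-associated proteins and beta-defensins) gave a silent level, the 90th percentile of their mean signals, of 631 in MVs and 968 in EXOs. A total of 7730 genes (39.1%) lay above that level in MVs and 3999 (20.2%) in EXOs.

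Markers of the labelled cells were present in both fractions. All 12 measured hESC markers were above the silent level in MVs and 8 were so in EXOs, with a summed signal of 78936 to 82447 in MVs and 14775 to 17593 in EXOs. All 12 were higher in MVs in the test below, of which NANOG, SALL4, DNMT3B and ZFP42 lost the call with quantile normalization. Of 12 fibroblast markers 7 passed the silent level in MVs and 3 in EXOs, and the summed signal was 10154 to 11668 and 9295 to 10767. Trophoblast, neural, endoderm and blood markers had no more than 3 members above that level in either fraction, and at most 1 member of each list differed in each direction. The part of other cell types in the differences was not tested.

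A gene was called different at a limma adjusted p (Benjamini-Hochberg, two-sided) under 0.05 and at least 2-fold. By that rule MVs exceeded EXOs for 2293 genes, or 11.6%, and EXOs exceeded MVs for 548, or 2.77%. On the level of probe sets the shares were 7.23% (3949) and 1.97% (1078). The 2 lists differed in size of effect and in brightness. The median difference was 2.17 on the log2 scale for genes higher in MVs, of which 536 differed by at least 8-fold, and 1.30 for genes higher in EXOs, of which 9 did. Among genes higher in MVs 2151 (93.8%) lay above the silent level in MVs, whereas 246 (44.9%) of the EXOs list passed its own group's level. The arrays of the 2 groups did not overlap for any called gene. With 3 arrays per group the rule for a call nearly requires this, and the share over all genes is not given here. Genes of translation, energy, splicing and pluripotency made up the smaller part of the calls, since 1939 (84.6%) of the MVs list and 542 (98.9%) of the EXOs list fell outside those themes.

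The balance of calls depended on scaling. The median difference of all genes was -0.23 on the log2 scale, and centring each array on its median moved it by 0.23 and quantile normalization by 0.11. Calls toward MVs were 80.7% of all calls as reported, 93.5% with median centring and 72.4% with quantile normalization. The EXOs list was the less stable one. It fell from 548 genes to 311, 347 and 360 without EXOs replicates 1, 2 and 3, and to 193 with median centring.

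**Figure D1:**
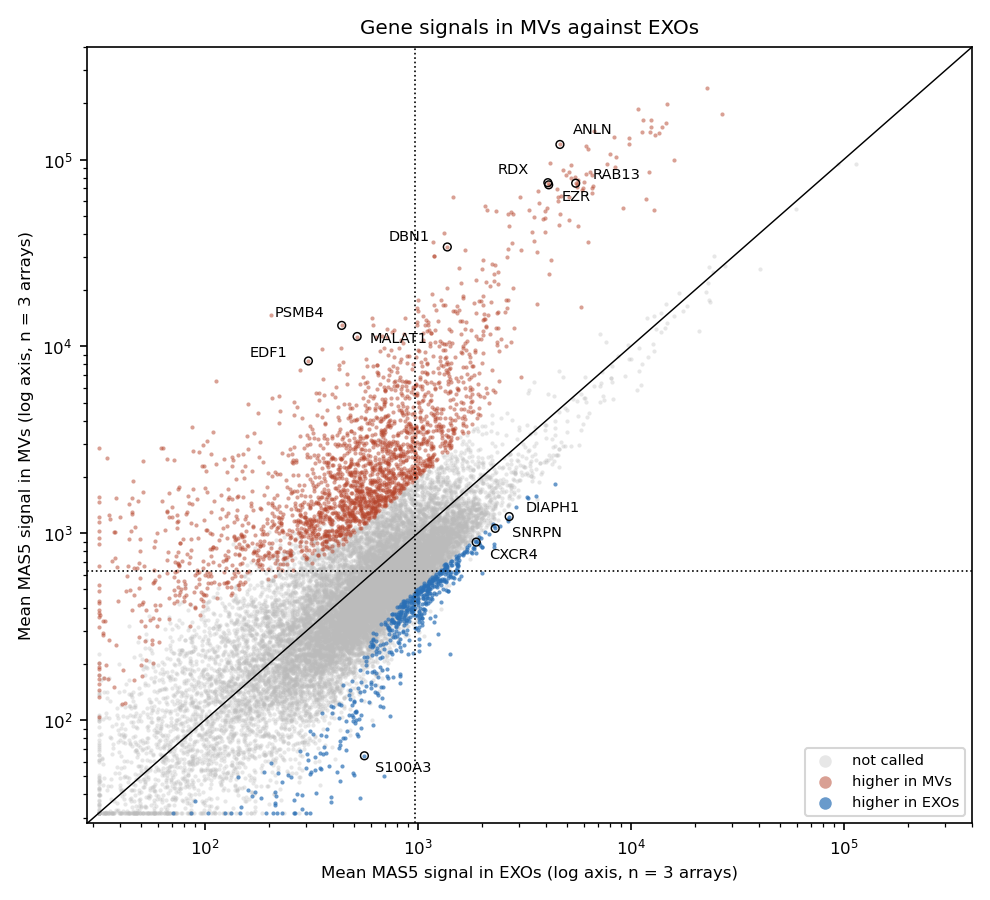
Each point is 1 of the genes measured, placed by its mean MAS5 signal over 3 EXOs arrays (x axis, log scale) and 3 MVs arrays (y axis, log scale), with genes higher in MVs in red and genes higher in EXOs in blue. The solid line marks equal signal and the dotted lines the silent levels of 631 in MVs and 968 in EXOs. The 2293 red points reach far above the line at high signal, while most of the 548 blue points lie near or below the silent levels.

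Some genes rested on more than a single probe set. Of 10523 genes with 2 or more, every probe set was higher in MVs for 183 and every probe set was higher in EXOs for 2. Outside the themes set aside and above the silent level these were 145 and 2 genes. Conversely, of 1298 genes of the MVs list with 2 or more probe sets 539 had the same sign in all of them, and 27 had a probe set called in the opposite direction. For the EXOs list the counts were 134 and 14 of 278.

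Among genes with every probe set higher in MVs, those named here are the 10 with the largest difference on their least different probe set. ANLN, anillin, which ties actin to the membrane at the cleavage furrow, gave signals of 129483, 106181 and 125362 in MVs and 4653, 5135 and 4156 in EXOs. It was 25.9-fold higher in MVs (log2 difference 4.69 ± 0.13 SE, limma adjusted p 1.4e-07), and its other probe set differed by 4.83. DBN1, drebrin, an actin-binding protein, gave 33487, 34717 and 33887 in MVs and 1174, 1467 and 1485 in EXOs, a 24.9-fold difference (limma adjusted p 1.3e-07). In both genes the lowest MVs array stood far above the highest EXOs array.

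H2AZ1, a histone variant, had signals of 25519, 28485 and 28338 in MVs and 2215, 1989 and 2501 in EXOs and was 12.3-fold higher in MVs. The 3 probe sets of PSMB4, a subunit of the proteasome core, differed by 3.65, 4.89 and 4.89. On the brightest of them PSMB4 gave 12218, 15918 and 10699.6 in MVs and 435, 332 and 550.4 in EXOs. EXOs signals of that gene were under the silent level, and counted against that level the difference was at least 13.4-fold. The same held for EDF1, a transcriptional coactivator (at least 8.63-fold), PPIB, a proline isomerase of the ER (at least 8.22-fold), TUBB4B, a beta tubulin (at least 7.38-fold), PPDPF (at least 3.20-fold) and TBCB, a tubulin folding cofactor (at least 2.21-fold). OAZ1, the antizyme that restrains polyamine synthesis, gave 24638, 26842 and 26503 in MVs and 1891, 2207 and 1889 in EXOs.

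**Figure D2:**
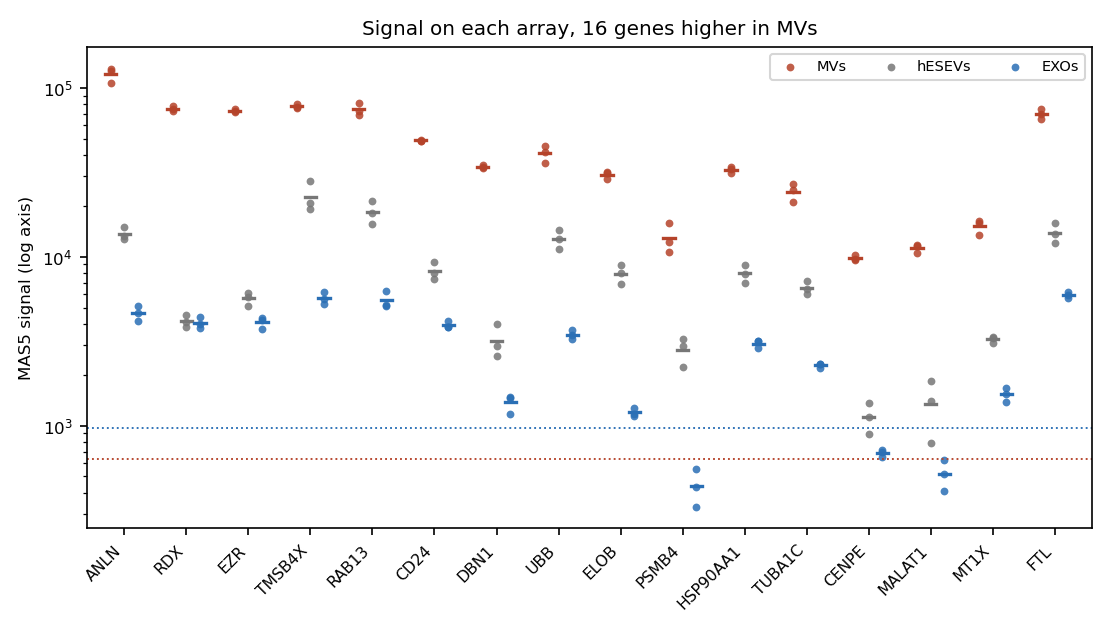
MAS5 signal on a log axis of 3 arrays each of MVs (red), hESEVs (grey) and EXOs (blue) for selected genes higher in MVs, with a bar at each group mean and dotted lines at the silent levels of MVs (631) and EXOs (968). No EXOs array reaches an MVs array for any gene shown, which holds for every called gene. RDX in hESEVs, at 4498, 3837 and 4114, lies at the EXOs level.

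The gene classes were read against the shares of all genes. Membership was set by function or by gene symbol, but with earlier results of these data known. The shares therefore describe these lists, and no class was tested. Among classes of protein quality control, cytoskeleton and metabolism the share higher in MVs far exceeded 11.6%. It was highest for the proteasome, with 28 of 31 genes (90.3%). Among all genes the share rose with signal. It was 3.64% for the 3956 dimmest genes (mean signal up to 221) and 31.4% for the 3956 brightest (938 or more). The proteasome lay far above 31.4%. ER to Golgi transport (32.4%), integrins and matrix (30.2%) and DNA repair (20.4%) lay near or below it. Classes were not matched for signal, and its part in their shares was not tested. In classes of receptors, channels and lineage factors the share higher in MVs was below 11.6%, with 0 of 152 ion channel genes and 2 of 167 developmental transcription factors higher in MVs. Most of their members were dim, with 32 of the 152 and 37 of the 167 above the silent level in MVs. Of the 149 silent reference genes 1 (0.67%) was higher in MVs. Counts are for the brightest probe set of a gene. Without probe sets whose names mark shared sequence (_s_at, _x_at) 1307 of 17100 genes were higher in MVs, and the count moved by over 1.5 times for 25 of the 33 classes with 5 or more such members.

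**Figure D3:**
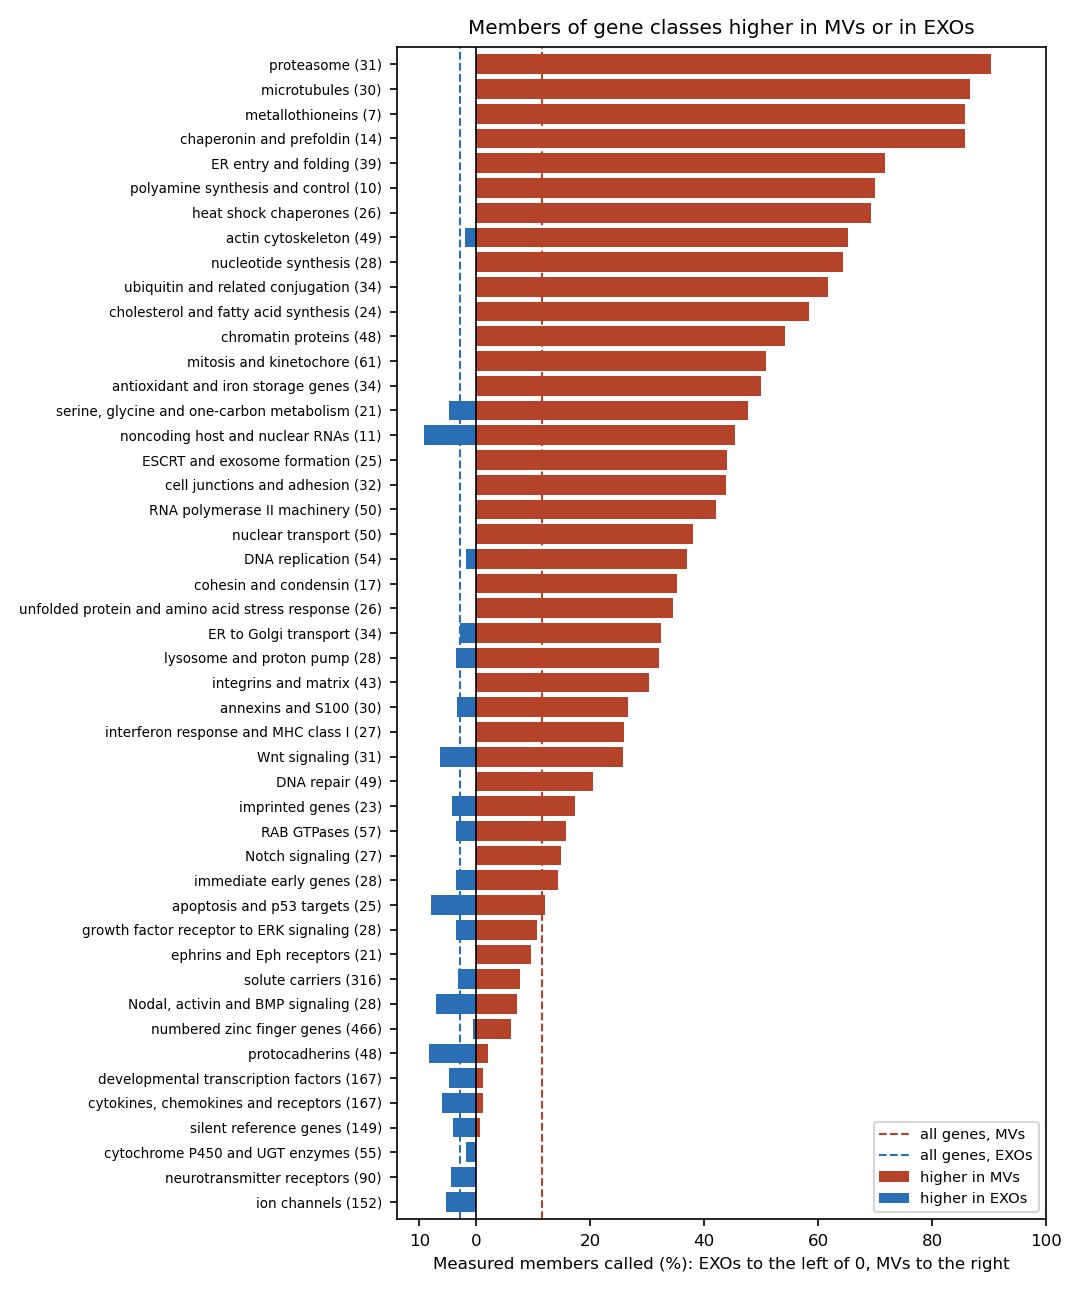
Bars give the percent of measured members of each gene class called higher in MVs (red, to the right) or in EXOs (blue, to the left), with the number measured in parentheses. Dashed lines mark all genes, 11.6% and 2.77%, and the longest bar is that of the proteasome at 90.3%.

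Genes of protein degradation and folding were widely higher in MVs. In the proteasome, the barrel that destroys ubiquitin-tagged proteins, 28 of 31 measured genes rose toward MVs and none toward EXOs, with a class median of 2.68 on the log2 scale against -0.23 for all genes. PSMB1, a core subunit, gave 19975, 15967 and 15372 in MVs and 2000.3, 1739 and 1744 in EXOs, a 9.31-fold difference. POMP, which assists proteasome assembly, gave 11357, 10712 and 10944 in MVs and 1915, 1765 and 2066 in EXOs. Among genes of ubiquitin and related conjugation 21 of 34 were higher in MVs (median 1.52), or 11 of 27 without shared probe sets. UBB, a ubiquitin gene, gave 41813, 45241 and 36035 in MVs and 3419, 3683 and 3242 in EXOs. ELOB, an adaptor of ubiquitin ligases, gave 31316, 31757 and 28786 in MVs and 1146, 1269.5 and 1175 in EXOs and differed by 25.6-fold (limma adjusted p 1.3e-07).

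Folding machines followed the same direction. Of 14 genes of the chaperonin, which folds actin and tubulin, and of its partner prefoldin 12 were higher in MVs (median 2.97). CCT2, a chaperonin subunit, gave 8039, 7578 and 8474 in MVs and 1275, 1466 and 1342 in EXOs. Of 26 heat shock chaperones 18 were higher in MVs (median 1.48). HSP90AA1, a cytosolic chaperone of signaling proteins, gave 31307, 33930.4 and 33128 in MVs and 3161, 3152 and 2879 in EXOs and was 10.7-fold higher. Proteins that bring new chains into the ER and fold them there counted 28 of 39 (median 1.78). SRP9, part of the signal recognition particle, gave 19802, 14478 and 18772 in MVs and 1125, 1316 and 1406 in EXOs, and HSPA5, the main ER chaperone, was at least 8.56-fold higher when counted against the silent level.

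The choice of probe set mattered for several of these genes. Without shared probe sets 17 of 24 proteasome and 9 of 18 heat shock genes were higher in MVs. PSMA2, PSMB1, POMP and SKP1 then lost their call, SKP1 also with quantile normalization, and CCT8, PFDN4 and HSPD1 had values on the EXOs side. HSPD1 is the mitochondrial chaperonin. Its brightest probe set had means of 28855 in MVs and 4199 in EXOs, and the next one 4518 and 3103, and it also lost its call with quantile normalization or averaging.

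Cytoskeletal genes stood high in MVs. Of 49 actin genes 32 rose toward MVs and 1 toward EXOs (median 1.53). TMSB4X, thymosin beta 4, which holds actin monomers in reserve, gave 77418, 76148 and 80656 in MVs and 6151, 5251 and 5596 in EXOs, a 13.8-fold difference. EZR and RDX, ezrin and radixin, link actin filaments to the plasma membrane. EZR gave 71539, 74916 and 73117 in MVs and 4234, 3753 and 4359.7 in EXOs and was 17.8-fold higher, with 4 of its 5 probe sets called and no call on the remaining one, the sole one whose name does not mark shared sequence. RDX gave 74828, 77900.3 and 72738 in MVs and 4419, 3799 and 4019 in EXOs and was 18.5-fold higher (limma adjusted p 1.3e-07). For RDX the other probe sets were dimmer, the next having means of 2716 in MVs and 1170 in EXOs. MSN, moesin, the remaining relative of this family, was chosen after its value was seen and had means of 16717 in MVs and 1348 in EXOs.

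DIAPH1, a formin that elongates actin filaments, was the actin gene higher in EXOs, with 1324, 1082 and 1277 in MVs and 2522, 2659.5 and 2875 in EXOs. Of its 4 probe sets 1 was called in EXOs and 1 in MVs. Its difference was 1.13 on the log2 scale toward EXOs with its brightest probe set and 0.05 toward MVs with all its probe sets averaged, and the call ended with median centring. Of 30 microtubule genes 26 were higher in MVs (median 2.36). TUBA1C and TUBA1A, alpha tubulins, gave 24889, 26801 and 21097 in MVs and 2314, 2182 and 2326 in EXOs for the first and 13472, 14480.4 and 11140.0 in MVs and 1035, 1046 and 881 in EXOs for the second. TUBB2A, a beta tubulin, gave 9996, 13487 and 11655 in MVs and 797 to 919 in EXOs, under the silent level there. Tubulin and actin relatives share sequence, and 11 of 19 microtubule genes and 21 of 39 actin genes were called when shared probe sets were left out.

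Among genes of membrane traffic the counts varied. Coat and cargo proteins between ER and Golgi were called in MVs in 11 of 34 (32.4%, median 0.83), lysosome and proton pump genes in 9 of 28 (median 1.03), and ESCRT and exosome formation genes in 11 of 25 (median 0.71), with 5 to 9 of the latter when any 1 array was left out (5 and 6 without MVs replicates 1 and 2). CHMP2A, an ESCRT filament subunit, gave 1370.5, 1741 and 1513 in MVs and 33, 42.7 and 39.2 in EXOs, and VPS25, an ESCRT adaptor, 1680.1, 1931 and 2201 in MVs and 387, 662 and 731 in EXOs. All 3 EXOs signals of both genes were under the silent level. NPC2, which carries cholesterol out of lysosomes, was at least 3.81-fold higher in MVs, and SEC13, a coat protein, at least 2.58-fold.

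RAB GTPases, the switches that direct vesicles to their targets, were called in MVs in 9 of 57 (15.8%, median 0.24), close to the share of all genes. A single member stood far out. RAB13, which acts at tight junctions, gave 73247, 81516 and 69207 in MVs and 5209, 5098 and 6228 in EXOs, a 13.6-fold difference (limma adjusted p 2.6e-07) on its only probe set. RAB11A, a GTPase of recycling endosomes, gave 5188, 5329.7 and 4794 in MVs and 1387, 1200.1 and 819 in EXOs, with no call once shared probe sets were left out. RAB36 was higher in EXOs with 365, 312 and 399.7 in MVs and 869, 1251 and 865 in EXOs. RAB5A, of early endosomes, was 2.84-fold higher in MVs, lost its call with quantile normalization and came to -0.05 with its probe sets averaged. Annexins and S100 proteins, which bind calcium and membranes, had 8 of 30 members called in MVs with a median of -0.01. ANXA5 gave 1951, 2286 and 2152 in MVs and 404, 478 and 585 in EXOs, and S100A3 was called in EXOs with 78, 54.5 and 60.7 in MVs and 562, 764 and 358 in EXOs, all under the silent level of its group.

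Cell surface classes varied in their share. Of 32 junction genes 14 were higher in MVs (median 0.76). CD24, a small anchored glycoprotein, gave 48594, 49307 and 48729 in MVs and 3856, 4152 and 3837 in EXOs, a 12.4-fold difference. GJA1, connexin 43, gave 13930.5, 13166 and 13532 in MVs and 1294, 888 and 792 in EXOs. EPCAM, an epithelial adhesion molecule, was at least 3.97-fold higher in MVs. Of 43 integrin and matrix genes 13 were higher in MVs, with 8 to 12 when any 1 array was left out (8 without MVs replicate 1), and the class median was 0.08, or -0.16 without shared probe sets. VCAN, versican, a matrix proteoglycan, gave 10389, 8593 and 9759.9 in MVs and 1162, 1166 and 685 in EXOs. Solute carriers, the transporters of small molecules, were close to background on the MVs side with 24 of 316 (7.59%), while 10 (3.16%) were higher in EXOs, or 4, 6, 6 and 3 without MVs replicate 2 and EXOs replicates 1, 2 and 3. SLC38A2, a glutamine transporter, gave 5876, 5900.2 and 6659 in MVs and 977, 1115 and 979 in EXOs. SLC22A14 was higher in EXOs, with signals of 604, 680.1 and 576 in MVs and 1345, 1233 and 1508 in EXOs, and it lost its call with median centring.

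Genes of the dividing nucleus were well represented in MVs. Of 54 DNA replication genes 20 rose toward MVs and 1 toward EXOs (median 0.65), of 61 mitosis and kinetochore genes 31 and 0 (median 1.25). CENPE, the kinesin of the kinetochore, gave 9578, 10258 and 9677 in MVs and 651, 701 and 719.6 in EXOs, at least 10.2-fold when counted against the silent level. RACGAP1, which directs cytokinesis, gave 5272, 5723 and 5914 in MVs and 929, 984 and 1051 in EXOs. PCNA, the sliding clamp of replication, gave 3101, 3053 and 3885 in MVs and 385 to 549 in EXOs. MCM6, of the replicative helicase, was at least 4.67-fold higher in MVs. POLA2, a subunit of DNA polymerase alpha, was called in EXOs with 521, 419 and 256 in MVs and 1109, 1010.1 and 706 in EXOs, and the call ended with quantile normalization, with median centring and without MVs replicates 2 or 3 or EXOs replicates 1 or 2.

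Chromatin proteins were called in MVs in 26 of 48 (median 1.43) and RNA polymerase II genes in 21 of 50 (median 1.03). HMGN3, a nucleosome-binding protein, gave 13995, 14157 and 13344 in MVs and 2214, 1724 and 2115 in EXOs. TAF10, a subunit of general transcription factor complexes, was at least 5.81-fold higher in MVs on its brightest probe set. Of the 3 probe sets of TAF10 1 was called in MVs and 1 in EXOs. Nuclear transport counted 19 of 50 (median 0.85), with RAN, the GTPase that gives transport its direction, at 10899.9, 12156 and 10789.9 in MVs and 424, 825 and 658 in EXOs. Cohesin and condensin counted 6 of 17 (median 0.44) and DNA repair 10 of 49 (median 0.36). XRCC6 and XRCC5, the Ku proteins that hold broken ends, were 6.52-fold and 5.30-fold higher in MVs, and XRCC5 lost its call without shared probe sets, as TAF10 did with averaging. The DNA repair count was 6 without MVs replicate 1.

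Numbered zinc finger genes, a large family of DNA-binding factors, had few calls. Of 466 measured 28 (6.01%) were higher in MVs, below the 11.6% of all genes, 3 were higher in EXOs, and the median was -0.21. Of the 466, 155 lay above the silent level in MVs. ZNF706 gave 2841, 2552 and 2237 in MVs and 478, 603 and 811 in EXOs. ZNF207, a mitotic spindle protein with zinc fingers, gave 3827, 4232 and 4145 in MVs and 1470.1, 1062 and 1062 in EXOs, but its difference was -0.23 when its probe sets were averaged. Of its 9 probe sets 2 were called in MVs and 1 in EXOs. With quantile normalization 18 zinc finger genes were called in EXOs, and without MVs replicate 2 or 3 there were 1 and 6.

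Metabolic classes outside energy production were higher in MVs in a large share of their members. For nucleotide synthesis 18 of 28 were called (median 1.36), for cholesterol and fatty acid synthesis 14 of 24 (median 1.52), for antioxidant and iron storage genes 17 of 34 (median 0.94), for serine, glycine and one-carbon metabolism 10 of 21 (median 1.01) and for polyamines 7 of 10 (median 1.66). FTL, the ferritin light chain, gave 70010.1, 74468 and 65433 in MVs and 5706, 6206 and 5900.1 in EXOs, an 11.8-fold difference that came to 0.89 on the log2 scale and lost its call with quantile normalization. PARK7 and TXN, which guard against oxidation, were 10.4-fold and 8.85-fold higher. PSAT1, of serine synthesis, gave 9366, 10869 and 10012 in MVs and 1494, 1153 and 1616 in EXOs.

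GLDC, the glycine decarboxylase, gave 9599, 11227 and 10620.4 in MVs and 758, 629.9 and 1177 in EXOs, at least 10.8-fold when counted against the silent level. FABP5, a fatty acid carrier, gave 9583, 10059 and 9797 in MVs and 1523, 1578 and 1783 in EXOs. DUT, which keeps uracil out of DNA, gave 9086, 9618 and 9059 in MVs and 1501, 1626 and 1712 in EXOs, a call that ended without shared probe sets. ODC1, the first enzyme of polyamine synthesis, was at least 3.35-fold higher, in the same direction as its inhibitor OAZ1. Metallothioneins, small proteins that bind zinc and copper, were called in MVs in 6 of 7 (median 2.86). MT2A gave 16166, 18852 and 17353 in MVs and 2089, 2166 and 1565 in EXOs and MT1X 13472, 16182 and 15757 in MVs and 1674, 1385 and 1542 in EXOs. Metallothionein probe sets cross-match among family members, none of the 2 genes measurable without shared probe sets was called, and MT1G was then at -0.14.

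Signaling classes other than Wnt had MVs shares of 7.14% to 14.8%, against 11.6% for all genes. For Nodal, activin and BMP signaling 2 of 28 (7.14%) were higher in MVs and 2 in EXOs. For growth factor receptors and ERK the counts were 3 (10.7%) and 1 of 28. Notch had 4 (14.8%) and 0 of 27, and Eph receptors and ephrins 2 (9.52%) and 0 of 21. Wnt had 8 and 2 of 31 (25.8% and 6.45%). Its MVs count was 3 of 25 without shared probe sets and 4 of 31 with probe sets averaged. Counts this small moved with single arrays. Notch had 2 without MVs replicate 1 or 3 or EXOs replicate 2, Eph had 0 without MVs replicate 2 or 3 or EXOs replicate 1, and the Nodal genes in EXOs were 0 to 1 whichever array was left out. ID1 and ID3, targets of BMP that block differentiation factors, gave 1535, 1597 and 1430.1 in MVs and 72.9, 165 and 165 in EXOs for ID1 and 1170.4, 1347 and 1357 in MVs and 66.2, 137 and 117 in EXOs for ID3. Both were under the silent level in EXOs, and the differences were at least 1.57-fold and at least 1.33-fold. NODAL itself was called in EXOs with 527, 304 and 386 in MVs and 861, 925 and 809 in EXOs, a call that ended with quantile normalization, with median centring and when any array except MVs replicate 1 was left out. FZD7, a Wnt receptor, was at least 3.00-fold higher in MVs, and TCF7L1, the repressor at Wnt targets, at least 2.24-fold.

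Stress classes were mixed. Among genes of the unfolded protein and amino acid response 9 of 26 were higher in MVs (median 0.64). ATF4, its central transcription factor, gave 10193, 9255 and 12012 in MVs and 1468, 1411 and 1474 in EXOs, a 7.19-fold difference. Apoptosis and p53 targets had 3 of 25 in MVs (1 without MVs replicate 3) and 2 in EXOs (0 without EXOs replicate 1 or 2), and immediate early genes 4 and 1 of 28. EGR1, an immediate early factor, was higher in EXOs with 543, 664 and 700.5 in MVs and 1511, 1022 and 1444 in EXOs, and JUND higher in MVs with 3338, 3096 and 2766 in MVs and 1276, 1038 and 972 in EXOs. EGR1 lost its call with median centring and without MVs replicate 1 or EXOs replicates 1 or 3, and JUND came to -0.03 with its probe sets averaged. Interferon and MHC class I genes had 7 of 27 in MVs (median 0.09). IFITM2 and IFITM3, membrane proteins that block viral entry, were 5.81-fold and at least 6.66-fold higher, the latter counted against the silent level, and without shared probe sets 1 of 18 members was called and the class median was -0.40.

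Noncoding and imprinted genes included both directions. ZFAS1, a host of small nucleolar RNAs, gave 10958, 10698 and 9979 in MVs and 1390.5, 1209 and 1602 in EXOs, a 7.57-fold difference. CYTOR, a cytoplasmic long noncoding RNA, was higher in EXOs with 675, 659 and 1124 in MVs and 1729, 1872 and 1888 in EXOs. MALAT1, a nuclear RNA of speckles, gave 10594, 11531 and 11744 in MVs and 517, 626 and 413 in EXOs on its brightest probe set, at least 11.7-fold higher. Of the 12 probe sets of MALAT1 2 were called in MVs, and the average over all its probe sets differed by 0.52 on the log2 scale and was not called. The 23 imprinted genes held 4 calls toward MVs and 1 toward EXOs. MEST gave 2979, 3591 and 2943 in MVs and 1226, 1096 and 1033 in EXOs. SNRPN, expressed from the paternal copy, was higher in EXOs with 889, 1161 and 1136 in MVs and 2442, 1975 and 2509 in EXOs, on its only probe set. SNRPN is also among the splicing genes set aside and is read here as an imprinted gene. CYTOR and SNRPN lost their calls with median centring, and SNRPN without MVs replicate 1.

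**Figure D4:**
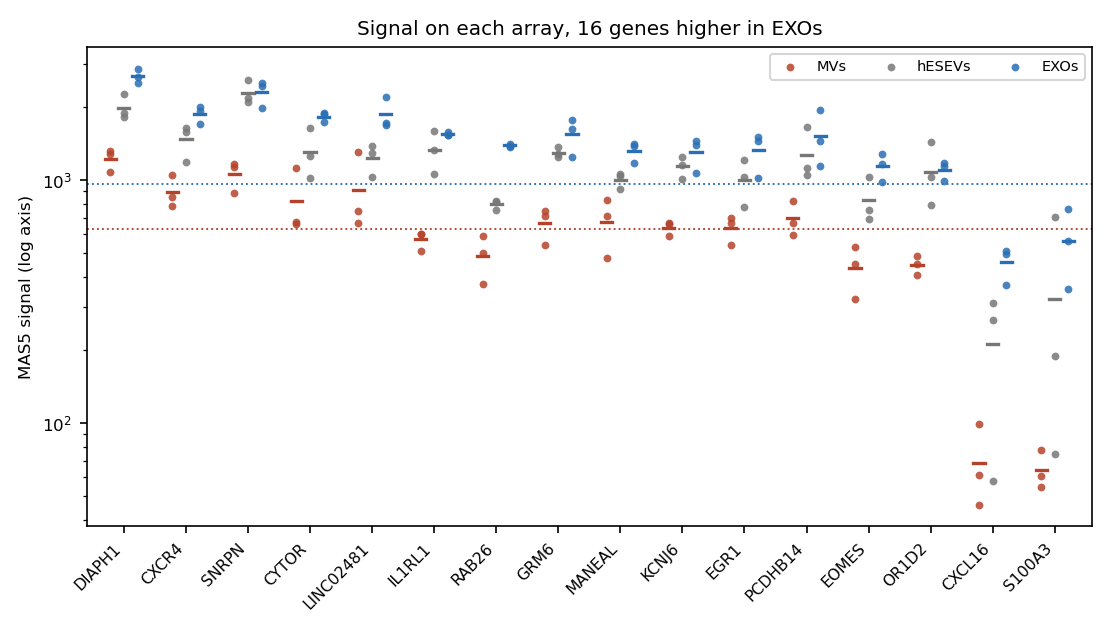
MAS5 signal on a log axis of 3 arrays each of MVs (red), hESEVs (grey) and EXOs (blue) for selected genes higher in EXOs, with a bar at each group mean and dotted lines at the silent levels of 631 (MVs) and 968 (EXOs). DIAPH1, CXCR4 and SNRPN pass the EXOs level, whereas CXCL16 and S100A3 lie under it in every group.

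Calls toward EXOs were few in every class. The highest counts were 10 of 167 cytokines, chemokines and their receptors (5.99%), 10 of 316 solute carriers, 8 of 152 ion channels (5.26%), 8 of 167 developmental transcription factors (4.79%), 4 of 90 neurotransmitter receptors (4.44%) and 4 of 48 protocadherins (8.33%). The silent reference genes gave 6 of 149 (4.03%), also above the 2.77% of all genes. Leaving out 1 array gave 8 to 13 cytokine genes, 2 to 6 ion channels, 4 to 10 developmental factors, 0 to 5 protocadherins and 1 to 6 silent genes. The lower ends belonged to EXOs replicate 1 for channels (2), developmental factors (4) and silent genes (1) and to EXOs replicate 3 for protocadherins (0). Ion channels also fell to 3 without MVs replicate 2 or EXOs replicate 2, developmental factors to 5 without MVs replicate 1 or EXOs replicate 2, and protocadherins to 1 without MVs replicate 2 and 2 without EXOs replicate 1 or 2. Neurotransmitter receptors fell to 2 without MVs replicate 3 or any EXOs array. Median centring left 7 cytokine, 1 solute carrier, 2 ion channel, 3 developmental factor, 1 neurotransmitter receptor and 1 protocadherin gene, and quantile normalization gave 17 cytokine and 16 solute carrier genes. Medians were -0.56 for the cytokine class, -0.46 for channels and -0.58 for developmental factors, and -0.62 for the silent genes.

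An EXOs mean above the silent level of 968 was reached, called or not, by 24 of 167 cytokine genes, 27 of 152 ion channels and 32 of 167 developmental factors. Of the silent reference genes 15 of 149 did so. The examples here are called genes. CXCR4, the receptor of a chemokine that guides migrating cells, gave 784, 851 and 1054 in MVs and 2008, 1710.0 and 1921 in EXOs, and was 2.11-fold higher in EXOs (limma adjusted p 0.0019). GRM6, a glutamate receptor of the retina, gave 714, 543 and 744 in MVs and 1245, 1618 and 1769.8 in EXOs. KCNJ6, a potassium channel, gave 660.4, 666 and 589.5 in MVs and 1448, 1403 and 1071 in EXOs. With median centring CXCR4, GRM6 and KCNJ6 lost their calls. CXCR4 also did so without MVs replicate 1, and KCNJ6 without MVs replicate 3 or EXOs replicate 1 or 2. IL1RL1, the receptor of interleukin-33, gave 603, 512 and 601 in MVs and 1539, 1582 and 1538 in EXOs, at least 2.46-fold higher, and kept its call whichever array was left out but not with its probe sets averaged. EOMES, a factor of early mesendoderm, gave 454, 324 and 531 in MVs and 1162, 981 and 1285 in EXOs and was at least 1.81-fold higher in EXOs. OR1D2, an olfactory receptor among the silent reference genes, gave similar signals, 996, 1174 and 1144 in EXOs, and was also called there. The signal of EOMES is thus not set apart from that of silent genes. CXCL16 and KCNJ13 had larger measured differences, with EXOs signals of 496, 511 and 372 and 648, 331 and 321, all under the silent level, and no fold is given for them.

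LINC02481, a long noncoding RNA, and MANEAL, an enzyme related to glycan-trimming mannosidases, were the genes whose probe sets were all higher in EXOs. LINC02481 gave 666, 1309 and 749 in MVs and 1683, 2199 and 1713 in EXOs, and its probe sets differed by 1.09 and 1.16 toward EXOs. MANEAL gave 709, 831 and 477 in MVs and 1175, 1411 and 1382 in EXOs, with differences of 1.01 and 2.45. LINC02481 lost its call when any array except MVs replicate 2 was left out, and MANEAL without MVs replicate 3 or EXOs replicates 2 or 3. Both lost their calls with median centring.

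Properties of genes that the calls did not use also differed between the lists. Of 16516 protein-coding genes 13.7% (2261) were called in MVs and 2.47% (408) in EXOs. Long noncoding RNA genes had 21 (0.79%) and 115 (4.33%) of 2657, and transcribed pseudogenes 5 (1.18%) and 14 (3.31%) of 423. The silent reference genes had 0.67% and 4.03% of 149. The shares of these noncoding types are thus not set apart from those of silent genes. Signal, which the calls did use, also differed by type. Long noncoding RNA genes had medians of 319 in MVs and 462 in EXOs, against 552 and 579 for protein-coding genes and 315 and 468 for silent genes. Probe sets with no gene had 224 higher in MVs and 344 higher in EXOs of 11721. The median genomic span of protein-coding genes higher in MVs was 19.3 kb, of those higher in EXOs 27.1 kb and of all 28.5 kb.

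The hESEVs arrays gave a reading in samples the calls did not use. Of genes higher in MVs 2135 (93.1%) had an hESEVs mean between the means of the fractions, as did 493 of the 548 genes higher in EXOs. These genes were chosen for fraction means far apart, which by itself favours a place between them. The same share among genes not called is not given, so no conclusion is drawn from these counts. With the EXOs mean set at 0 and the MVs mean at 1 on the log2 scale, the median place of hESEVs was 0.39 for the MVs list, and 1594 of its 2293 genes lay nearer to EXOs. The place differed among genes. For 465 genes (20.3%) of the MVs list it was below 0.2.

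RDX and EZR, the membrane linkers of actin, had hESEVs signals close to those of EXOs. RDX signals in hESEVs were 4498, 3837 and 4114, overlapping the EXOs arrays and far from the MVs arrays, a place of 0.0058, and its other called probe set lay at 0.06. EZR gave 5807, 5128 and 6109 in hESEVs, a place of 0.11, and its 5 probe sets ranged from 0.07 to 0.16. MSN lay at 0.10. By contrast TMSB4X, another actin gene, gave 27937, 20819 and 19296, a place of 0.52, and RAB13 21257, 18057 and 15567, a place of 0.46. ANLN lay at 0.33 and CENPE at 0.18.

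**Figure D5:**
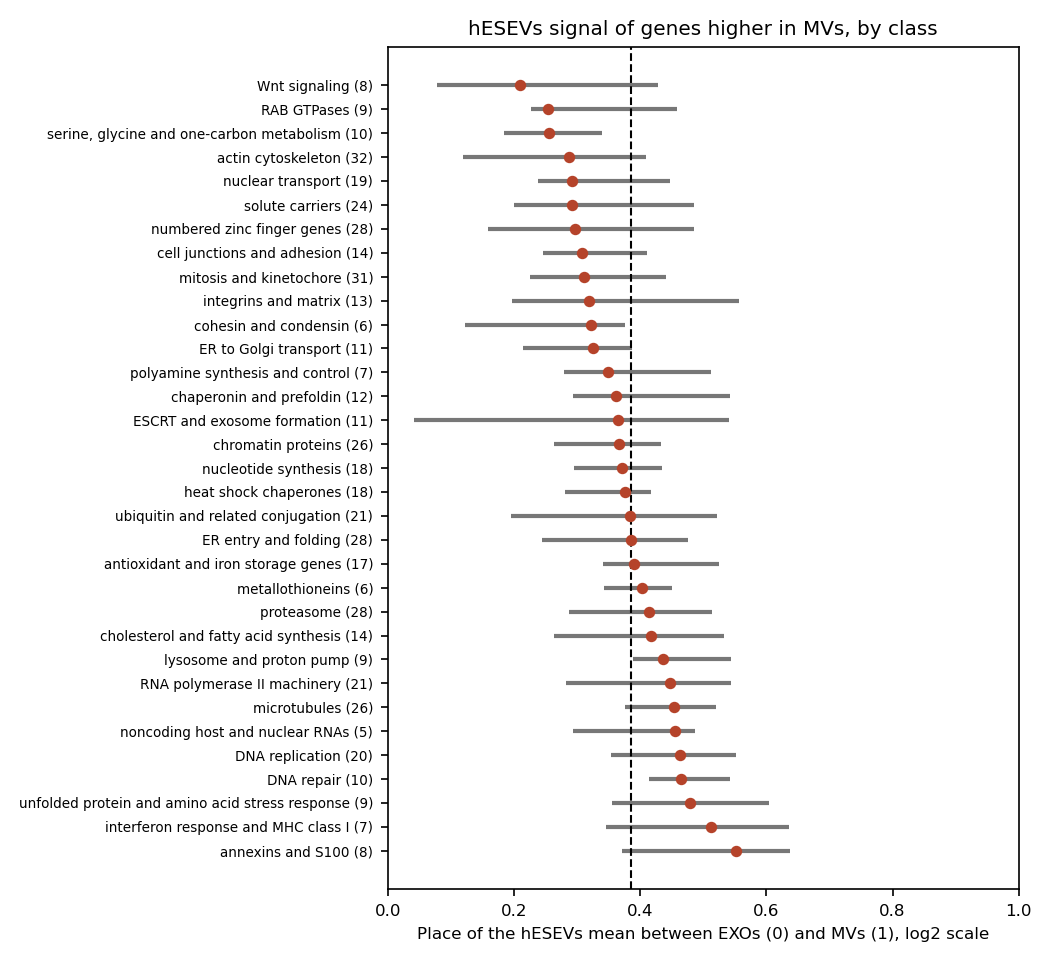
For genes higher in MVs, each dot is the class median of the place of hESEVs between EXOs (0) and MVs (1) on the log2 scale, the bar spans the quartiles of the class, and the number of genes is in parentheses. The dashed line is the median of all genes higher in MVs, 0.39, and class medians run from 0.21 for Wnt signaling to 0.55 for annexins and S100.

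By class the median place ran from 0.21 for 8 Wnt genes, 0.25 for 9 RAB genes and 0.29 for 32 actin genes to 0.45 for 26 microtubule genes, 0.51 for 7 interferon and MHC genes and 0.55 for 8 annexin and S100 genes. Among actin genes 11 of 32 lay below 0.2. The place also varied with gene span, at a median of 0.49 in the shortest of 5 groups of equal size and 0.34 in the longest, and the median log2 difference of those groups was 2.80 and 1.81. No test was made of these places, and the fractions and hESEVs were collected with different spins.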

How the data were processed

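RNA of H9-derived vesicles was read on HG-U133 Plus 2.0 arrays, 3 per group. The authors deposited MAS5 intensities, linear and scaled to a target of 500 (the version is not given in the sources used here), and their RMA values and detection calls were not used here. Groups came from the labels. Signals under 32 were set to 32 and log2 was taken. The 62 control probe sets were left out, genes were assigned through the platform's probe table, and 41037 of 41091 with 1 gene matched a RefSeq table for GRCh38.p14. Each gene was read by its brightest probe set. MVs and EXOs were compared with limma 3.58.1 in R 4.3.3 (lmFit, eBayes with trend, two-sided, Benjamini-Hochberg adjusted p under 0.05 and at least 2-fold); tables and figures used Python 3.11.15, pandas 2.3.3, numpy 2.4.6 and matplotlib 3.10.9. The procedure was tested on simulated data. Differences "at least" N-fold set the higher mean against the silent level of the lower group. Genes of translation, energy, splicing and pluripotency were set aside, except as cell markers or where also listed in a class. The text names up to 10 genes in each direction with all of 2 or more probe sets called, up to 3 called members of each class and direction with the smallest p, and cell markers. Class members named this way were also required to have MVs and EXOs arrays that do not overlap. The members and lists were chosen with earlier results of these data known. Genomic span was used in place of protein length, which is not analysed here. The number of arrays limits the precision. Alternatives covered scaling, floor, probe set choice, the fit and each array left out.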

Additional observations from a re-analysis of the deposited data

How the results depend on the processing

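The count of genes higher in MVs (2293) was 1307 without _s_at and _x_at probe sets, with fewer genes tested, ranged from 1920 to 2250 without any 1 array, and stayed within 1.5 times of the reported value under the other alternatives. For EXOs the count (548) was 834 after quantile normalization, 193 after median centring, 1280 with limma p without adjustment, 899 with the methods' t-test, 232 with that test after Benjamini-Hochberg adjustment, and 311 to 466 without any 1 array. Probe sets higher in EXOs (1078) numbered 336 with median centring. Deviations of same-numbered MVs and EXOs arrays correlated at -0.0091, -0.010 and 0.0047, so the numbers were not taken to pair samples, and a replicate block gave 2234 genes higher in MVs and 401 in EXOs. Of 33 classes with 5 or more members higher in MVs, the count moved by over 1.5 times for 25 without _s_at and _x_at probe sets, 11 with probe sets averaged and 9 with the adjusted t-test, and for 0 with quantile normalization, median centring, other floors or the block. Of 143 named genes called in MVs, 128 kept the call with quantile normalization, 143 with median centring, 110 with averaging and 135 to 140 with any 1 array left out, and of 48 called in EXOs 38, 19, 25 and 25 to 35. Of 138 such genes measured without _s_at and _x_at probe sets 90 kept it.

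Named genes turned direction only with another choice of probe set. Without _s_at and _x_at probe sets the log2 difference of MVs over EXOs was -0.91 for CCT8, -0.76 for PFDN4, -1.30 for HSPD1, -1.18 for ANXA2, -0.76 for CBX3, -0.48 for ZNF827, -0.23 for ZNF207, -0.80 for PAICS, 1.33 for FZD2, -1.01 for RBPJ, -1.07 for MCL1, -0.071 for GNAS, -0.14 for MT1G, 0.57 for HOXD1 and -0.36 for ZFP42. With probe sets averaged it was 0.047 for DIAPH1, 0.47 for ATP6V1H, -0.054 for RAB5A, -0.23 for ZNF207, 0.10 for APC, -0.13 for MCL1, -0.029 for JUND and 0.026 for KCNJ15. The cause was not tested. Arrays numbering 3 per group, signals near the silent level for most genes higher in EXOs, and no reading of absolute amounts limit these results.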
